A study of Mus musculus with 8 samples.

Results

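*Emb*, *Aldh1l1*, *Fam198b* and *Pou2f3* are 4 autosomal genes, out of 24542 genes counted in each sample, that were chosen for large differences in the share of allelic reads carrying the B6 allele between *Hdac3*+/+ and *Hdac3*-/- embryonic stem cells (ESCs) at 0 hr. They were examined to tell which allele gained or lost reads. The samples were RNA-seq libraries of TX1072, a female mouse ESC line from a cross of *Mus musculus castaneus* (Cast) and C57BL/6 (B6), in which doxycycline (DOX) switches on *Xist* on the B6 X chromosome. The *Hdac3*+/+ 0 hr and *Hdac3*+/+ 24 hr groups each held 2 samples of the untargeted line, without DOX or after 24 hr of DOX at 1 µg per ml. The *Hdac3*-/- 0 hr and *Hdac3*-/- 24 hr groups each held 2 samples, one from each of 2 knockout clones made from the line with CRISPR/Cas9. All 4 groups carried the inducible *Xist* and were grown in serum with LIF and 2i. The clones were picked after plating at clonal density and carry different exon deletions of *Hdac3*, so spread among *Hdac3*-/- samples includes the difference between clones, whereas that among *Hdac3*+/+ samples comes from a single line. P-values therefore measure only the spread between these samples, and a property of the clones cannot be told apart from loss of *Hdac3*.

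Libraries held 6940375 to 17125156 reads on genes, of which 30.1% to 31.6% were assigned to an allele. *Hdac3* itself, the targeted gene, had 39.4 to 43.4 CPM (read counts scaled to 1000000 reads on genes) in the 4 *Hdac3*+/+ samples and 5.54 to 7.22 CPM in the 4 *Hdac3*-/- samples, with no overlap. Naive ESC markers summed to 4935 to 5228 CPM in *Hdac3*+/+ and 5909 to 6300 CPM in *Hdac3*-/- samples. At 24 hr 3 of the 10 were higher and 1 was lower, where 11.3% of all 12925 genes were called on total counts in either direction. Markers of other cell types were far less abundant. Primed epiblast markers summed to 239 to 282 against 125 to 146 CPM (2 of 4 tested lower) and neuroectoderm to 106 to 115 against 45.3 to 55.6 CPM (3 of 4 lower). Fibroblast markers summed to 254 to 284 against 94.6 to 120 CPM (1 of 4 lower, with *Col3a1*, *Postn* and *Dcn* at or near 0). *Vim* made up most of the fibroblast sum in every sample, so that sum mainly follows *Vim* and not the list. At 24 hr *Vim* was lower on B6 counts by -1.44 on the log2 scale (edgeR adjusted p = 1.48e-05). On Cast counts it was lower by -1.59 (edgeR adjusted p = 0.000298). Primitive endoderm markers summed to 48.2 to 70.2 against 72 to 93.3 CPM, trophoblast to 67 to 110 against 61.7 to 74.2 CPM and mesoderm to 27.4 to 72.2 against 36 to 66.8 CPM (*Mesp1* at 0), and none of the 4, 6 and 2 of their genes tested was called. The part of these markers in the results below was not tested. In bulk RNA, fewer cells expressing a gene and less RNA per cell cannot be told apart.

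In an F1 hybrid cell both copies of a gene sit in the same nucleus, so a change that reaches both copies alike leaves the B6:Cast ratio as it was, whereas a difference that acts on one copy moves it. HDAC3 is a histone deacetylase that works in NCoR/SMRT corepressor complexes and is usually linked to repression. Among the 4 genes, *Emb* encodes embigin, a membrane glycoprotein that chaperones monocarboxylate transporters. *Aldh1l1* encodes the cytosolic 10-formyltetrahydrofolate dehydrogenase of folate metabolism. *Fam198b*, named *Gask1b* in RefSeq, encodes a Golgi membrane glycoprotein of a family with the FAM20 kinases. *Pou2f3* encodes a POU-domain transcription factor best known from tuft cells and epidermis.

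The genes lie on different chromosomes. In GRCm38 (GENCODE M21), *Fam198b* (ENSMUSG00000027955.16) spans chr3:79884533-79946280 and *Aldh1l1* (ENSMUSG00000030088.15) chr6:90486427-90600203, both on the + strand. *Pou2f3* (ENSMUSG00000032015.16) spans chr9:43123939-43210369 on the - strand, and *Emb* (ENSMUSG00000021728.8) chr13:117208536-117274415 on the + strand. All are protein-coding. *Fam198b* overlaps the antisense gene *Gm36569*, *Emb* overlaps *Gm17509* on the other strand, and *Aldh1l1* overlaps *Gm45901* and *Gm44236* on its own strand and *Gm15756* on the other. Reads were counted with strand, so for *Aldh1l1* the genes on its own strand leave its reads less certain. The 250 bases before the RefSeq start (GRCm38.p6, the B6 reference) are shown for the 3 genes with an entry. Their part in the level of either allele was not tested. All 3 windows lie inside the GENCODE spans above rather than before their starts. Which start was used in these cells was not examined. CpG dinucleotides are in capitals.
Emb, chr13:117220323-117220572, + strand: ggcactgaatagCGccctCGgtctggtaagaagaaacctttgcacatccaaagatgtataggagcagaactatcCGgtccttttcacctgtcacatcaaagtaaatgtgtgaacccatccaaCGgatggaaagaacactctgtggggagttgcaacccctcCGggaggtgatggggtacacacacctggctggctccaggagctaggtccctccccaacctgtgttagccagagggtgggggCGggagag
Aldh1l1, chr6:90550543-90550792, + strand: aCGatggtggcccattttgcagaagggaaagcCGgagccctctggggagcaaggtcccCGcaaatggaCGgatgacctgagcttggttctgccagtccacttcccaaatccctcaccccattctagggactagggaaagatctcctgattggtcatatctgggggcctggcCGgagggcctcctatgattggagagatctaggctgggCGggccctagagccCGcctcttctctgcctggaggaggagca
Fam198b (Gask1b), chr3:79885680-79885929, + strand: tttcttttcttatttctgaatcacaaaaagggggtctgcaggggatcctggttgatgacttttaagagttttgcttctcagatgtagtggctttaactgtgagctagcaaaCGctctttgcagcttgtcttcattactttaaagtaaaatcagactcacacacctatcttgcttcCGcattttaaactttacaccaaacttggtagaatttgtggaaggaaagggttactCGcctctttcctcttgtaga
*Emb* had 6 CG in this window, *Aldh1l1* 7 and *Fam198b* 3, with a GC content of 54.8%, 59.6% and 39.6%. Of 32851 mouse promoters of the same length, 50.4%, 46.3% and 71% held at least as many CG, and the median was 6. The *Fam198b* window thus had fewer CG than the median promoter, and the other windows were close to it. The Cast bases of these windows were not analysed here.

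The choice rested on the B6 share at 0 hr. The fit of that contrast used all 8 samples, took genes with at least 10 allelic reads in each and adjusted p-values over autosomal genes. In it 59 of 9148 autosomal genes (0.645%) passed the threshold. By the size of the share difference among those, *Pou2f3* was at place 1 (-30.1 percentage points, *Hdac3*-/- minus *Hdac3*+/+), *Fam198b* at place 2 (-25.1), *Emb* at place 4 (-22.5) and *Aldh1l1* at place 5 (-22.2). *Col4a2* at place 3 (-23.9) is not a member, and the next gene outside was *Col4a1* at place 6 (-21.6). The 4 genes therefore had a lower B6 share in the knockout at 0 hr by choice, and all values at 0 hr are given as a description. The choice was on share differences at 0 hr, but the fit behind these places also took its read filter and spread from the 24 hr samples. Tests compare the 2 *Hdac3*-/- with the 2 *Hdac3*+/+ samples at 24 hr.

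At 24 hr the 4 genes fell into different patterns. *Emb* lost reads of both alleles, more of B6 than of Cast, whereas *Fam198b* gained Cast reads and its B6 reads did not pass the test. *Pou2f3* gained reads of both alleles, and its B6 share at 24 hr overlapped between the genotypes. *Aldh1l1* had fewer B6 reads in both knockout samples, but no measure of it passed the threshold. In edgeR's quasi-likelihood test with Benjamini-Hochberg adjustment over all genes, the B6:Cast ratio of *Emb* and *Fam198b* was called lower in *Hdac3*-/- cells, which is 2 of 4 genes against 0.921% of all 9664 genes tested in either direction and 0.269% called lower. Among the 9214 autosomal genes alone, the like of these 4, the shares were 0.499% and 0.282%. B6 counts were called for *Emb* and *Pou2f3*, 2 of 4 against 7.87% of 10915 genes. Cast counts were called for *Emb*, *Fam198b* and *Pou2f3*, 3 of 4 against 4.86%, and total counts for the same genes, 3 of 4 against 11.3% of 12925. Groups of 2 samples often stood apart: at 24 hr the genotypes did not overlap in CPM for 50.5% of genes on B6 reads, 49.4% on Cast reads and 58.9% on all reads. Because the genes were selected on a neighbouring time point of the same lines, these counts describe how far their values stood at 24 hr and are no independent sample of genes.

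**Figure D1:**
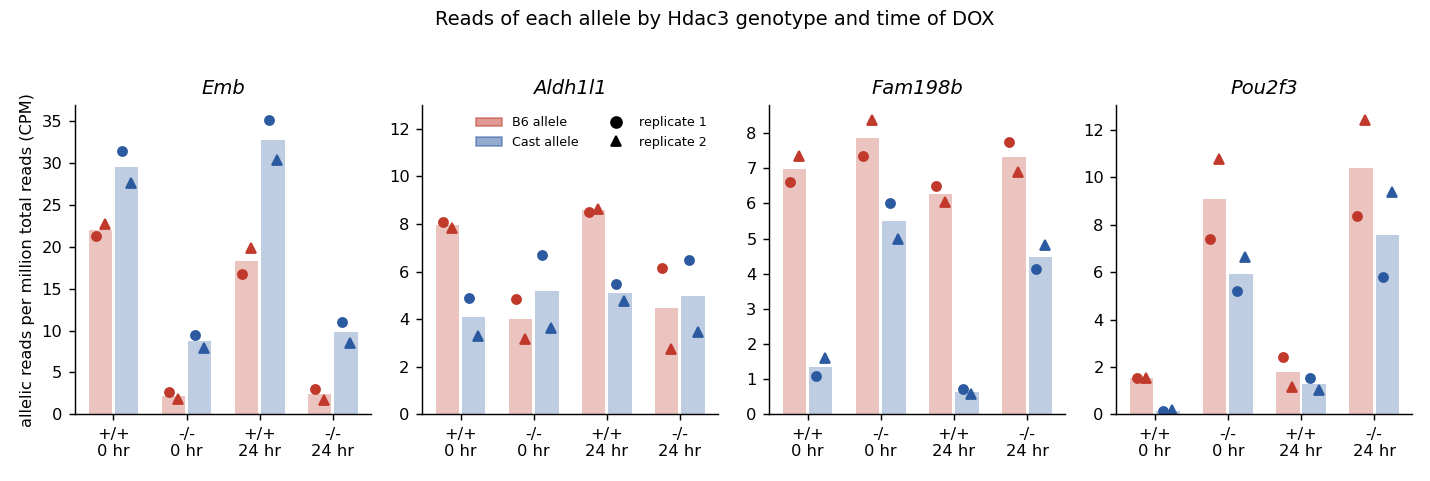
B6 (red) and Cast (blue) CPM for the 4 genes by *Hdac3* genotype and time of DOX; bars are means of 2 samples and points single samples (circle replicate 1, triangle replicate 2). Both alleles of *Emb* are lower and both of *Pou2f3* higher in *Hdac3*-/- samples, while *Fam198b* differs mainly in Cast reads, from 0.576 to 1.60 CPM in *Hdac3*+/+ to 4.13 to 6.02 CPM in *Hdac3*-/-.

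*Emb* was lower from both alleles in both clones. At 0 hr its B6 reads were 21.3 and 22.7 CPM in *Hdac3*+/+ and 2.69 and 1.83 CPM in *Hdac3*-/- samples, and its Cast reads were 31.4 and 27.6 against 9.52 and 7.96 CPM. Pooled over samples, the knockout held 0.106 of the *Hdac3*+/+ level of B6 reads (counting interval 0.0812 to 0.137) and 0.300 of the Cast reads (0.260 to 0.346). At 24 hr the B6 reads were 16.7 and 19.9 against 3.08 and 1.77 CPM. No *Hdac3*-/- sample reached an *Hdac3*+/+ sample on either allele at either time. The fitted difference at 24 hr was -2.86 ± 0.25 on the log2 scale (SE, n = 2 against 2) for B6 counts (edgeR adjusted p = 2.07e-05). For Cast counts, at 35.1 and 30.4 against 11.1 and 8.57 CPM, it was -1.71 ± 0.18 (edgeR adjusted p = 0.000288).

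All reads of *Emb*, which include those without an informative base, were 77 and 76.4 CPM in *Hdac3*+/+ and 19.9 and 16.1 CPM in *Hdac3*-/- at 24 hr. The total thus fell by 2.06 on the log2 scale (SE 0.14, edgeR adjusted p = 0.000515). The B6 share, B6 reads over B6 plus Cast reads, was 40.4% and 45.1% in *Hdac3*+/+ at 0 hr, where the Cast allele already led, and 22% and 18.6% in *Hdac3*-/-. At 24 hr it was 35.9% ± 5.17 (SD, n = 2) in *Hdac3*+/+ and 19.4% ± 3.25 (SD, n = 2) in *Hdac3*-/-, a difference of -16.4 points. Both knockout samples lay below both *Hdac3*+/+ samples, as they did in 18% of 9214 autosomal genes, and the difference took place 422 of them by size. The log2 B6:Cast ratio differed by -1.15 ± 0.26 (SE, 95% interval -1.70 to -0.59, edgeR adjusted p = 0.0489), just within the threshold. That call was lost with adjustment over autosomal genes alone (edgeR adjusted p = 0.0912), in DESeq2 (adjusted p = 0.910) and in limma (adjusted p = 0.538). It was also lost without either *Hdac3*+/+ sample or without *Hdac3*-/- replicate 2, at -1.40, -0.94 and -0.97. The calls on total and B6 counts were kept in every alternative run, and the call on Cast counts was lost only without *Hdac3*+/+ replicate 1 (-1.59, adjusted p = 0.0754).

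*Fam198b* differed chiefly in its Cast reads. In *Hdac3*+/+ cells it was read mostly from B6, and Cast reads were few, at 14, 19, 7 and 4 reads in the 0 hr replicates and then the 24 hr replicates. These are 1.09 and 1.60 CPM at 0 hr and 0.709 and 0.576 CPM at 24 hr. In *Hdac3*-/- samples Cast reads were 6.02 and 4.98 CPM at 0 hr and 4.13 and 4.83 CPM at 24 hr, all above the highest *Hdac3*+/+ sample. At 24 hr Cast counts were higher by 2.78 ± 0.41 on the log2 scale (SE, 95% interval 1.90 to 3.67, edgeR adjusted p = 0.00191). B6 reads at 24 hr were 6.48 and 6.05 CPM in *Hdac3*+/+ and 7.74 and 6.90 CPM in *Hdac3*-/-. They did not overlap either, but the fitted difference of 0.25 ± 0.22 did not pass (95% interval -0.22 to 0.73, edgeR adjusted p = 0.589).

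The B6 share of *Fam198b* was 85.9% and 82.1% in *Hdac3*+/+ at 0 hr, against 55% and 62.7% in *Hdac3*-/-. At 24 hr it was 90.1% (exact 95% interval 80.7 to 95.9, 71 allelic reads) and 91.3% (79.2 to 97.6, 46 reads) in *Hdac3*+/+, and 65.2% (56.5 to 73.2) and 58.8% (49.4 to 67.8) in *Hdac3*-/-. The difference of group means was -28.7 points, place 41 of 9214 autosomal genes by size. The log2 B6:Cast ratio differed by -2.53 ± 0.44 (SE, 95% interval -3.47 to -1.59, edgeR adjusted p = 0.00604), and the ratio of the knockout stayed on the B6 side. Total reads rose less, from 27.9 and 30.3 CPM to 42.5 and 45.3 CPM at 24 hr, a difference of 0.63 ± 0.14 (edgeR adjusted p = 0.0263). Only 21.9% to 31.2% of *Fam198b* reads were allelic, the lowest of the 4 genes. Without *Hdac3*+/+ replicate 1 or 2 the ratio was -2.65 (adjusted p = 0.508) or -2.46 (0.399), Cast counts were 2.96 (0.121) or 2.67 (0.0711) and total counts 0.57 (0.267) or 0.68 (0.176), so each of these calls needed both *Hdac3*+/+ samples. In limma the ratio was -2.47 with an adjusted p of 0.438.

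*Pou2f3* was low in *Hdac3*+/+ cells and higher from both alleles in both clones. All reads were 2.80 and 2.87 CPM in *Hdac3*+/+ at 0 hr and 19.4 and 30.9 CPM in *Hdac3*-/-. At 24 hr they were 7.39 and 6.20 against 23.6 and 37.3 CPM. No groups overlapped, and the *Hdac3*-/- samples differed more from each other than the *Hdac3*+/+ samples did. At 24 hr total counts were higher by 2.18 ± 0.27 on the log2 scale (SE, edgeR adjusted p = 0.00346). B6 counts, at 2.43 and 1.15 against 8.35 and 12.4 CPM, were higher by 2.49 ± 0.33 (edgeR adjusted p = 0.000367). Cast counts, at 1.52 and 1.01 against 5.80 and 9.36 CPM, were higher by 2.56 ± 0.37 (edgeR adjusted p = 0.00157). The total and B6 calls were kept in every alternative run, and the Cast call was lost without *Hdac3*+/+ replicate 1 (2.92, adjusted p = 0.120) or replicate 2 (2.34, adjusted p = 0.0839).

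The share difference for which *Pou2f3* was chosen rested on few reads. In *Hdac3*+/+ at 0 hr it had 20 B6 and 2 Cast reads in replicate 1 and 18 B6 and 2 Cast reads in replicate 2, a B6 share of 90.9% (exact 95% interval 70.8 to 98.9) and 90% (68.3 to 98.8). In *Hdac3*-/- at 0 hr the share was 58.8% (51.9 to 65.4) and 61.9% (55 to 68.5) on 216 and 210 allelic reads. At 24 hr the *Hdac3*+/+ samples had 24 B6 and 15 Cast reads, then 8 and 7, or 61.5% (44.6 to 76.6) and 53.3% (26.6 to 78.7). The *Hdac3*-/- samples had 59% (51 to 66.7) and 57% (50.2 to 63.6). The groups overlapped at 24 hr, with means of 57.4% ± 5.80 and 58% ± 1.41 (SD, n = 2 each), and the difference of 0.574 points took place 8382 of 9214 autosomal genes by size. The log2 ratio differed by -0.07 ± 0.41 (95% interval -0.93 to 0.80, edgeR adjusted p = 0.986). A ratio difference within that interval was neither shown nor excluded. *Pou2f3* is the gene of the 4 whose lower B6 share at 0 hr was not seen at 24 hr.

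Between 0 and 24 hr of DOX, Cast reads of *Pou2f3* in *Hdac3*+/+ cells went from 0.155 and 0.169 CPM to 1.52 and 1.01 CPM, that is from 4 to 22 reads in all. B6 reads were 1.55 and 1.52 CPM before and 2.43 and 1.15 CPM after. All reads went from a mean of 2.83 ± 0.05 to 6.79 ± 0.85 CPM (SD, n = 2 each), 2.40-fold, and from 25.2 ± 8.13 to 30.5 ± 9.62 CPM in *Hdac3*-/- cells, 1.21-fold. The fold of the other genes' total reads with DOX lay between 0.928 and 1.13 in both genotypes. These contrasts share the 0 hr samples used for the choice and were not tested, and neither was the difference between the share differences of the 2 times.

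*Aldh1l1* showed a lower B6 level in the knockout with large spread between the clones. Its B6 reads were 8.08 and 7.84 CPM in *Hdac3*+/+ at 0 hr and 4.85 and 3.15 CPM in *Hdac3*-/-. Its Cast reads overlapped between genotypes, with 4.90 and 3.29 against 6.72 and 3.65 CPM. At 24 hr B6 reads were 8.51 and 8.64 CPM against 6.15 and 2.76 CPM, again without overlap, and the fitted difference was -0.90 ± 0.30 on the log2 scale (edgeR adjusted p = 0.0875). Cast reads, at 5.47 and 4.75 against 6.50 and 3.45 CPM, overlapped and differed by -0.01 ± 0.31 (95% interval -0.68 to 0.66, edgeR adjusted p = 0.993). That average spanned clones on opposite sides, since the Cast value was -0.53 without *Hdac3*-/- replicate 1 (adjusted p = 0.370) and 0.36 without replicate 2 (adjusted p = 0.494). In *Hdac3*-/- replicate 2 both alleles lay below both *Hdac3*+/+ samples, whereas in replicate 1 only the B6 allele did.

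The B6 share of *Aldh1l1* was 62.3% and 70.5% in *Hdac3*+/+ and 41.9% and 46.3% in *Hdac3*-/- at 0 hr. At 24 hr it was 62.7% ± 2.58 against 46.5% ± 2.95 (SD, n = 2 each), with 60.9% and 64.5% above 48.6% and 44.4%, and the difference of -16.2 points took place 451 of 9214 autosomal genes. The log2 ratio differed by -0.90 ± 0.31 (95% interval -1.56 to -0.24), which did not pass after adjustment over all genes (edgeR adjusted p = 0.310). The B6 counts of *Aldh1l1* did pass with the replicate number as a block (-0.92, adjusted p = 0.00632), without a filter on low counts (-0.90, adjusted p = 0.0101) and without *Hdac3*-/- replicate 1 (-1.58, adjusted p = 2.87e-05). Without *Hdac3*-/- replicate 2 the value was -0.45 (adjusted p = 0.289). Its total counts, at 22.8 and 20.6 against 22.8 and 10.5 CPM, differed by -0.35 ± 0.31 (edgeR adjusted p = 0.518). This value was -0.99 without *Hdac3*-/- replicate 1 (adjusted p = 0.000607) and 0.0914 without replicate 2.

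**Figure D2:**
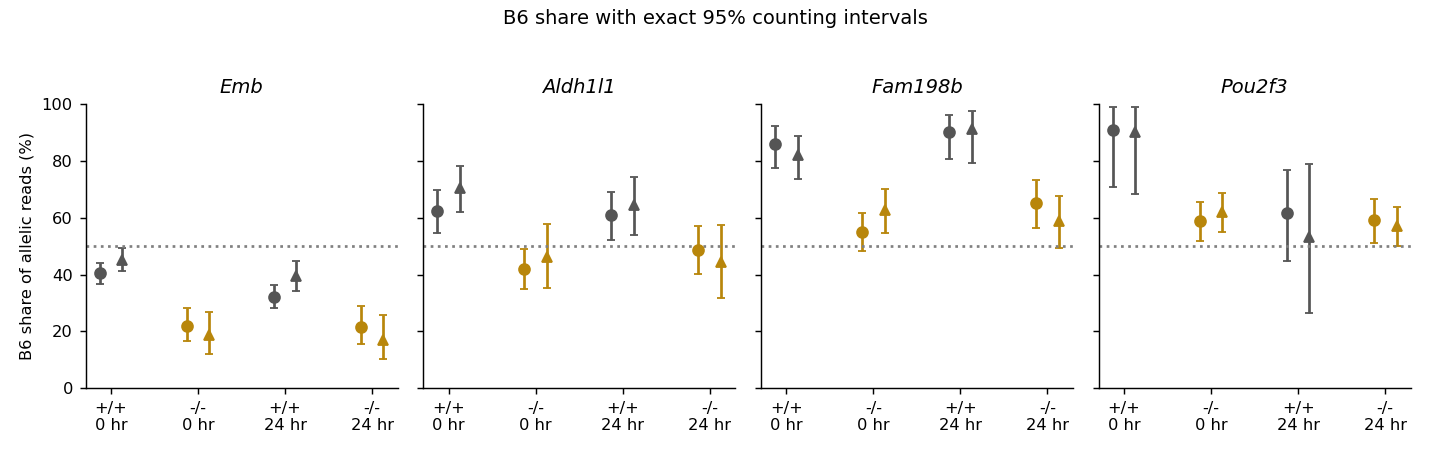
B6 share of allelic reads in percent for each sample, grey for *Hdac3*+/+ and gold for *Hdac3*-/-, with exact 95% counting intervals (circle replicate 1, triangle replicate 2); the dotted line marks 50%. *Emb*, *Aldh1l1* and *Fam198b* have lower shares in both clones at both times, and the *Pou2f3* samples overlap at 24 hr, where the *Hdac3*+/+ intervals are wide (15 and 39 allelic reads).

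**Figure D3:**
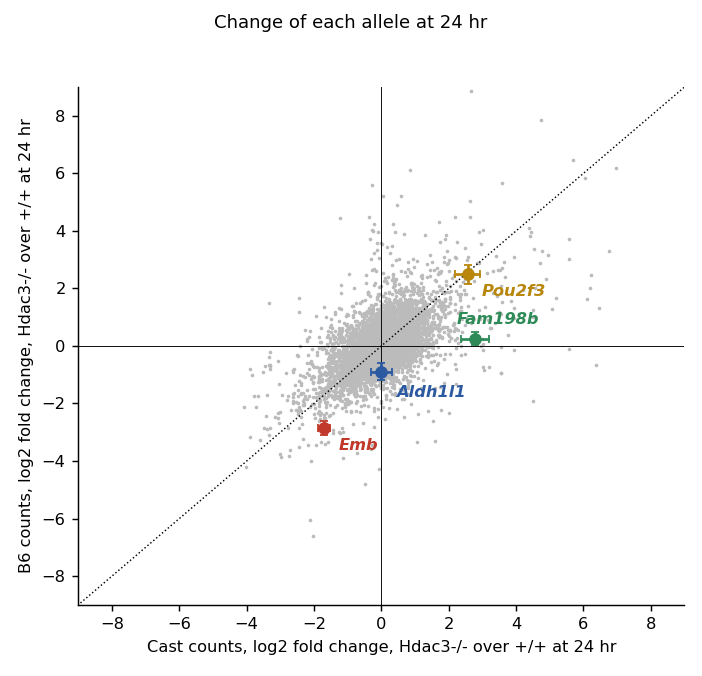
Log2 fold change at 24 hr, *Hdac3*-/- over *Hdac3*+/+, of Cast counts (x axis) against B6 counts (y axis) for 10915 genes (grey) and the 4 genes (coloured, bars are SE); on the dotted diagonal both alleles change alike. *Pou2f3* lies on the diagonal at 2.56 and 2.49, *Emb* below it at -1.71 and -2.86, *Fam198b* far right of it at 2.78 and 0.25, and *Aldh1l1* below it at -0.01 and -0.90.

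In levels per length (TPM, scaled from all reads and GENCODE exon lengths), *Emb* was highest of the 4 genes in every *Hdac3*+/+ sample and lowest in every *Hdac3*-/- sample, and *Pou2f3* the reverse. In *Hdac3*+/+ at 0 hr the order was *Emb* (38.8 ± 0.06 TPM), *Aldh1l1* (16.7 ± 1.54), *Fam198b* (11.7 ± 0.26) and *Pou2f3* (3.29 ± 0.02; SD, n = 2 each), and no neighbours in that order overlapped. In *Hdac3*-/- at 0 hr it was *Pou2f3* (29 ± 9.23 TPM), *Fam198b* (16.9 ± 1.26), *Aldh1l1* (12.4 ± 3.83) and *Emb* (8.23 ± 1.27). No samples of *Aldh1l1* (15.1 and 9.65 TPM) and *Emb* (9.12 and 7.33 TPM) overlapped there, but the nearest were close. At 24 hr the *Hdac3*+/+ order was the same, from 39 ± 0.95 TPM for *Emb* to 7.74 ± 1.11 for *Pou2f3*. In *Hdac3*-/- at 24 hr *Pou2f3* had 35.5 ± 10.9 TPM and *Fam198b* 16.5 ± 0.63 TPM, and *Aldh1l1* (18.3 and 8.37 TPM) overlapped both *Fam198b* and *Emb* (10.4 and 8.33 TPM).

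Since each *Hdac3*-/- replicate is a clone of its own, the shift of the share could be particular to one of them, and the clones were compared with each other. The 0 hr samples cannot serve for this, because genes were chosen there for a share that differed from *Hdac3*+/+ over both clones. At 24 hr both clones lay below both *Hdac3*+/+ samples for *Emb*, *Aldh1l1* and *Fam198b*, as they did in 18% of 9214 autosomal genes. The *Hdac3*-/- replicates 1 and 2 then had a B6 share of 21.7% and 17.1% for *Emb*, 48.6% and 44.4% for *Aldh1l1*, 65.2% and 58.8% for *Fam198b* and 59% and 57% for *Pou2f3*. In a fit of all 8 samples, none of the 4 genes was called for a different B6:Cast ratio between clones, against 3.01% of 9595 genes. That share is over all chromosomes, among them chromosome 16. Its median B6 share was 33.2% to 34.1% in the 4 *Hdac3*+/+ samples and 33.3% in *Hdac3*-/- replicate 1 at both times. In *Hdac3*-/- replicate 2 it was 50% and 49.3% at 0 and 24 hr. The 0 hr samples behind the choice are also part of that fit, and the count supports nothing. The log2 ratio of replicate 2 over replicate 1 was -0.35 (95% interval -0.99 to 0.28) for *Emb*, 0.04 (-0.62 to 0.69) for *Aldh1l1*, 0.10 (-0.47 to 0.66) for *Fam198b* and 0.04 (-0.48 to 0.56) for *Pou2f3*. With either 0 hr sample left out, the contrast rests on the 24 hr pair, and the ratio was -0.42 for *Emb*, -0.24 for *Aldh1l1*, -0.39 for *Fam198b* and -0.12 for *Pou2f3* (lowest adjusted p = 0.905). A difference between the clones was therefore neither shown nor excluded, and the genes are referred to here by how they were chosen rather than as clone-specific.

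Total levels were called different between the clones for 2 of the 4 genes, against 17.5% of 13771 genes called. Each clone had a single library at each time, so this fit took the 0 and 24 hr libraries of a clone as its replicates. The p-values treat those libraries as independent. *Aldh1l1* was lower in replicate 2, with 19 and 22.8 CPM in replicate 1 at 0 and 24 hr against 12.3 and 10.5 CPM, a log2 difference of -0.83 ± 0.14 (SE, edgeR adjusted p = 0.00186). *Pou2f3* was higher in replicate 2, with 19.4 and 23.6 against 30.9 and 37.3 CPM, a difference of 0.69 ± 0.12 (edgeR adjusted p = 0.00175). *Emb* (-0.28 ± 0.11, adjusted p = 0.0867) and *Fam198b* (0.16 ± 0.09, adjusted p = 0.275) did not pass. Without any one of the 4 *Hdac3*-/- samples the *Pou2f3* call was lost (adjusted p = 0.0819 to 0.0971), and the *Aldh1l1* call was lost without either 24 hr sample (-0.61, adjusted p = 0.142 without replicate 1 and 0.136 without replicate 2).

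To see whether the shift reached past each gene, the 5 nearest genes on each side with at least 10 allelic reads in every sample were listed, 40 in all. None was called for the B6:Cast ratio at 24 hr by edgeR, where 0.499% of autosomal genes were, so that few or no calls among 40 say little. The B6 share difference ran from -25.3 to 15.1 points with a median of -0.279. Both ends were neighbours of *Emb*. *Fst*, the gene of follistatin, had -25.3 points on as few as 14 allelic reads (adjusted p = 0.493), and *Pelo*, the gene of a ribosome rescue factor, had 15.1 points (adjusted p = 0.501). These were named after their values were seen, and they lie at -2786 and -2152 kb from *Emb*. The nearest neighbours of *Fam198b* were *Tmem144* at -15.1 points on as few as 14 allelic reads and *Pdgfc*, a growth factor gene, at 0.037 points. Those of *Aldh1l1* were *Klf15* at -6.69 points and *Iqsec1* at 0.0425 points, and those of *Pou2f3* were *Tmem136* at -8.98 and *Nectin1* at -6.73 points. The lowest of the 10 neighbours of *Aldh1l1* was *Fbln2*, 699 kb away, at -19.1 points on as few as 15 allelic reads (edgeR adjusted p = 0.696). *Aldh1l1* itself had -16.2 points. On total counts 4 of the 40 were called, namely *Fbln2* (-1.57), *Pdgfc* (-1.73), *Trim2* (-1.36) and *Tmem136* (1.06), close to the 11.3% of all genes.

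**Figure D4:**
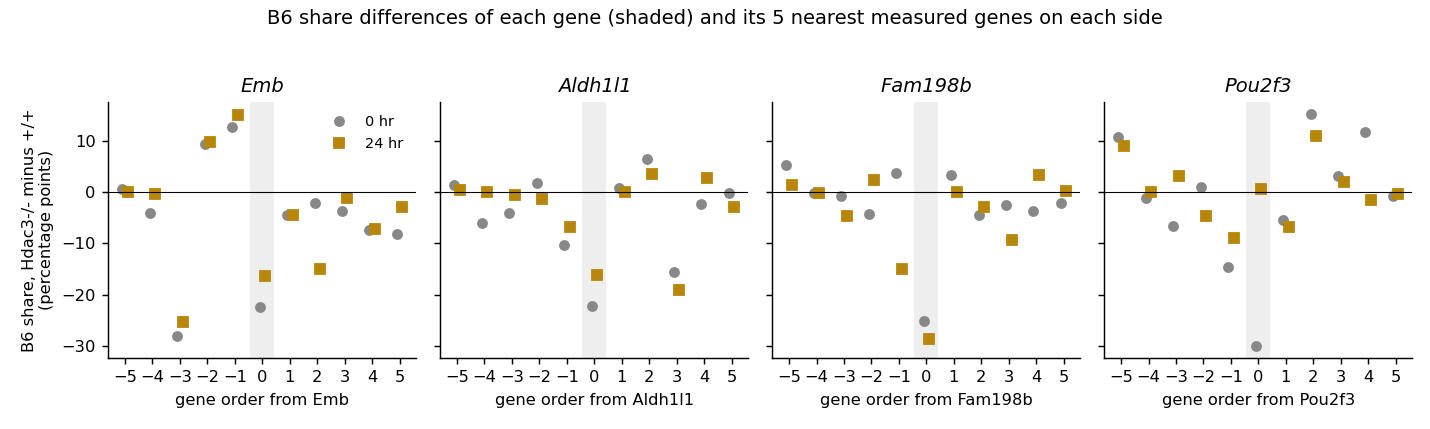
Difference of the B6 share, *Hdac3*-/- minus *Hdac3*+/+ in percentage points (means of 2 samples), for each of the 4 genes (shaded, place 0) and the 5 nearest measured genes on each side in chromosome order, grey at 0 hr and gold at 24 hr. *Emb*, *Aldh1l1*, *Fam198b* and, at 0 hr, *Pou2f3* stand below most neighbours. The neighbours of *Emb* spread from -25.3 to 15.1 points at 24 hr.

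The chromosomes of the 4 genes had medians near 50% in every sample. The median B6 share of all measured genes in the 8 samples lay between 50.9% and 51.8% on chromosome 3, 49% and 51% on chromosome 6, 50% and 51.6% on chromosome 9 and 47.8% and 49.8% on chromosome 13.

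The other genes of the pathways to which the 4 genes belong were counted on total reads at 24 hr, where 11.3% of all genes were called and the median log2 difference was 0.003. Of the embigin and basigin family with monocarboxylate transporters, 0 of 4 tested genes were higher and 1 lower (median -0.04). This was *Slc16a3*, which encodes the lactate exporter MCT4, at -1.17 ± 0.19 (edgeR adjusted p = 0.0101), with 37.5 and 27.8 CPM in *Hdac3*+/+ and 15.4 and 13.2 CPM in *Hdac3*-/-. *Bsg*, the paralogue of *Emb* that also chaperones monocarboxylate transporters, had -0.09 ± 0.10 and *Slc16a1*, the gene of MCT1, 0.02 ± 0.11. None of the 4 was called for the B6:Cast ratio.

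Of the genes of folate one-carbon metabolism, 2 of 22 tested were higher and 2 lower (median 0.13). *Mthfd2*, a mitochondrial enzyme of the pathway, was higher by 1.18 ± 0.20 (edgeR adjusted p = 0.0101), and *Gldc*, of the glycine cleavage system, was lower, at -0.93 ± 0.15 (edgeR adjusted p = 0.00927). *Mtrr*, methionine synthase reductase, was higher by 0.68 ± 0.11 (edgeR adjusted p = 0.00932) and was the only 1 of 21 called for the ratio, toward B6 by 1.27 (edgeR adjusted p = 0.00167), the opposite direction to *Aldh1l1*. The remaining call was *Tyms*, thymidylate synthase, at -0.52 ± 0.13 (edgeR adjusted p = 0.0414).

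Of the FAM20 and FAM198 family, 0 of 6 tested genes were called on total counts and 0 of 3 on the ratio (median -0.14 on total counts). Of the POU-domain genes, 1 of 7 was called. *Pou4f2*, a neuronal factor, was lower at -3.05 ± 0.33 (edgeR adjusted p = 0.00191), opposite to *Pou2f3*, with 10 and 8.93 CPM against 1.14 and 1.08 CPM. *Pou5f1*, the ESC factor, had 0.06 ± 0.09, and *Pou2f1*, the ubiquitous relative of *Pou2f3*, -0.11 ± 0.10. The median of the list was -0.51. Of the 13 tuft cell genes counted, only 2 had enough reads to test, and neither was called (median 1.10). *Alox5*, of leukotriene synthesis, had 0.709 and 0.144 CPM in *Hdac3*+/+ against 1.85 and 1.48 CPM in *Hdac3*-/- at 24 hr (1.84 ± 0.66, edgeR adjusted p = 0.113), and *Plcg2* had 0.37 ± 0.29 (edgeR adjusted p = 0.465). *Avil*, the gene of advillin, was too low to test, with 0.288 to 0.699 CPM in the *Hdac3*+/+ and 0.788 to 2.29 CPM in the *Hdac3*-/- samples of both times. *Ptgs1*, also too low to test, lay the other way, with 0.608 to 1.855 CPM in *Hdac3*+/+ and 0.350 to 0.591 CPM in *Hdac3*-/- samples. *Dclk1*, likewise untested, had 0.144 to 0.466 CPM and 0 to 0.264 CPM, with overlap.

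The genes most like each of the 4 were ranked by Pearson's r over 16 values, the B6 and Cast level in each of the 8 samples as log2 of CPM plus 1, among 9595 genes. The values of a sample share its library and depth, and r is a description. *Emb* was nearest to *Ifitm1* (r = 0.979), *Gldc* (0.970) and *Sall1* (0.969). *Sall1* also had a lower B6 share in *Hdac3*-/- samples (26% to 29.8% against 43.6% to 49.2%). *Aldh1l1* was nearest to *Fam213a* (0.888), *Mvp* (0.879) and *Rxra* (0.871). *Fam198b* was nearest to *Rnf17* (0.947), *Nop14* (0.934) and *2400006E01Rik* (0.931). *Rnf17*, a germline gene, had a B6 share of 77.7% to 85.6% in *Hdac3*+/+ and 59.1% to 69.3% in *Hdac3*-/- samples, close to the values of *Fam198b*. *Pou2f3* was nearest to *Senp3* (0.949), *Rplp0* (0.945) and *Dpy19l3* (0.941), of which *Rplp0* kept a B6 share of 51% to 52.6% in all samples.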

How the data were processed

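RNA-seq of 8 samples in 4 groups of 2 was used, grouped by genotype, time and replicate as labelled. The deposited tables hold raw counts per gene of all reads and of reads assigned to the B6 or Cast allele, and the authors' fraction of B6 reads over allelic reads for genes with at least 10 of them. According to the methods, reads on rRNA were removed, the rest were mapped with TopHat2 2.1.0 and counted with strand over exons with featureCounts 1.5.1, and the submitters' processing notes name mm10. How reads were assigned to an allele is not given in the sources used here. A bias of mapping toward the reference allele was not tested.

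CPM were divided by all reads on genes, and shares were recomputed from counts with exact Clopper-Pearson 95% intervals, which cover counting error only because reads carried no molecular identifiers. Fold intervals are counting intervals of pooled reads. Each 24 hr test used only the 4 samples at 24 hr, so that it did not use the 0 hr shares behind the choice. It was run in edgeR 4.0.16 (R 4.3.3) with glmQLFit and glmQLFTest. Each SE of an edgeR fit was derived as the absolute log2 difference over the square root of the test's F statistic. The 95% intervals of these fits used that SE with a t quantile. The ratio test had 2 columns a sample, an effect for each sample and a genotype by allele term, for genes with at least 10 allelic reads in each sample. Total, B6 and Cast counts were tested with the TMM library size of total counts, for genes with at least 10 reads (total or allelic) in at least 2 samples. Clones were compared in a fit of all 8 samples. P-values were adjusted by Benjamini-Hochberg over all genes of a fit, or over autosomal genes for the 0 hr ratio, with a threshold of 0.05. The fits were tested on simulated data with known changes. Alternatives used DESeq2 1.42.0 and limma 3.58.1, other filters and scalings, a replicate block, all 8 samples, and leaving out each sample. Positions came from GENCODE M21, where 660 symbols had no match, and promoters from RefSeq. Tables and intervals were made in Python 3.11.15 with pandas 2.3.3, scipy 1.17.1 and numpy 2.4.6, and figures with matplotlib 3.10.9.

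The genes and the pathway and marker lists were chosen with earlier results of these data known. Named besides the 4 genes were *Hdac3*, up to 3 called genes of each list with the largest change, and the 3 genes most like each of the 4. Nearest neighbours, paralogues, tuft cell genes, *Tyms*, *Vim*, *Col4a1*, *Col4a2*, *Fst*, *Pelo* and *Fbln2* were named in addition, after their values were seen.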

Additional observations from a re-analysis of the deposited data

How the results depend on the processing

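Of 217 values of the 4 genes under alternatives, 178 kept their direction and side of the threshold, 24 kept the direction and lost the call, 4 gained a call and 11 changed sign. Of 121 that left out no sample, 112 kept both. The *Emb* ratio lost its call with at least 20 allelic reads in each sample (-1.15, adjusted p = 0.0536), with 10 in at least 2 samples (-1.15, 0.0524), in DESeq2 (-1.19), in limma (-1.20) and with adjustment over autosomal genes (-1.15). The *Fam198b* ratio lost it in limma (-2.47), the *Pou2f3* ratio changed sign in limma (0.0433), and *Aldh1l1* B6 counts gained a call without a filter (-0.90). DESeq2 gave no adjusted p for the ratio of *Aldh1l1*, *Fam198b* and *Pou2f3* at 24 hr or of *Fam198b* and *Pou2f3* between clones, and *Pou2f3* could not be fitted at 20 allelic reads.

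Leaving out one sample leaves an arm with 1 sample, which is assumed to vary like the others. The ratio at 24 hr then ran from -1.40 to -0.94 for *Emb*, -1.05 to -0.80 for *Aldh1l1*, -2.73 to -2.34 for *Fam198b* and -0.21 to 0.27 for *Pou2f3*. B6 counts ran from -3.29 to -2.53 for *Emb*, -1.58 to -0.45 for *Aldh1l1*, 0.18 to 0.32 for *Fam198b* and 2.12 to 3.19 for *Pou2f3*. Cast counts ran from -1.89 to -1.54, -0.53 to 0.36, 2.66 to 2.96 and 2.17 to 2.92 in the same order, and total counts from -2.20 to -1.92, -0.99 to 0.0914, 0.57 to 0.69 and 1.81 to 2.49. Between clones the ratio ran from -0.42 to -0.30 for *Emb*, -0.24 to 0.26 for *Aldh1l1*, -0.39 to 0.46 for *Fam198b* and -0.12 to 0.19 for *Pou2f3*, and total counts from -0.29 to -0.28, -1.08 to -0.61, 0.12 to 0.18 and 0.68 to 0.69.

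Genes called by edgeR for the ratio at 24 hr numbered 89, and 30 with adjustment over autosomal genes, 7 in DESeq2, 0 in limma (760 at an unadjusted p under 0.05) and 1 to 238 without one sample. B6 counts called 859, 414 in DESeq2 and 207 to 1352 without one sample. Cast counts called 531, 1050 without a filter, 271 in DESeq2 and 2 to 1411 without one sample. Total counts called 1457, 2632 without a filter and 289 to 3589 without one sample. Between clones the ratio called 289, 93 in DESeq2 and 136 to 179 without one sample, and total counts 2406, 4754 with only the *Hdac3*-/- samples, 1142 in DESeq2 and 339 to 418 without one sample. The cause of these differences was not tested.

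The replicate numbers of *Hdac3*+/+ and *Hdac3*-/- samples at 24 hr share a number, and no source ties a number to a batch or day. The correlation of deviations of same-numbered samples was 0.258 for total counts and -0.018 for shares at 24 hr. It was highest, at 0.757 and 0.157, between the *Hdac3*-/- groups of 0 and 24 hr, which hold the same 2 clones. Over the other pairs of groups it ran from 0.247 to 0.397 for total counts and from -0.018 to 0.022 for shares. The total counts thus hint at a shared structure, with only 2 numbers to judge it. With the replicate number as a block, calls numbered 237 for the ratio, 1424 for B6 and 960 for Cast counts, *Aldh1l1* B6 counts gained a call (-0.92), and no other call of the 4 genes at 24 hr changed. No paired analysis was possible because the replicate number is the tested term in the comparison of clones. Depth limits *Pou2f3* shares in *Hdac3*+/+ samples (15 to 39 allelic reads) and *Fam198b* Cast reads (4 to 19).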

Other observations

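*Tmem144* and *Pdgfc*, the measured genes on either side of *Fam198b*, were also read mostly from B6. *Pdgfc* had a B6 share of 83.8% to 88.2% in the *Hdac3*+/+ and 81.4% to 92.3% in the *Hdac3*-/- samples, and *Tmem144* 64.7% to 86.2% and 64.3% to 79.2%. Total reads of *Pdgfc* were lower in *Hdac3*-/- cells at 24 hr, at -1.73 on the log2 scale (edgeR adjusted p = 0.00608), while those of *Fam198b* were higher. The *Pdgfc* ratio at 24 hr differed by 0.04 ± 0.37 (edgeR adjusted p = 0.993). These neighbours were described after their values were seen.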
